A study of Mus musculus with 4 samples.

Results

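Neighbourhoods of 9 pluripotency genes were examined in mouse E14 embryonic stem cells for CpGs that methylation-assisted bisulfite sequencing (MAB-Seq) read as converted. A neighbourhood is the sequence within 100 kb of a fixed point of build mm9 set for the gene, and its members are all deposited sites in it. The points were not checked against an mm9 annotation, so a distance from a point is not a distance from a promoter. The neighbourhoods are chr17:35543000-35743000 for Pou5f1, chr3:34449000-34649000 for Sox2, chr6:122557000-122757000 for Nanog, chr4:55440000-55640000 for Klf4 and chr12:87680000-87880000 for Esrrb. The others are chr5:120021000-120221000 for Tbx3, chr1:120450000-120650000 for Tfcp2l1, chr1:13010000-13210000 for Prdm14 and chr2:168474000-168674000 for Sall4, each with its point in the middle. Of 472220 listed sites in the 4 libraries, 745 were members. They comprised 502 of 331875 sites in the first and 205 of 118502 in the second whole-genome library, 21 of 12895 in the control shRNA library and 17 of 8948 in the Tdg shRNA library. The next 500 kb on each side served as flanks and held 2263, 736, 65 and 45 sites in the same order.

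Both whole-genome libraries came from E14 cells labelled wild type. The other libraries were reduced-representation MAB-Seq, in which DNA is cut with MspI, from E14 cells with a control shRNA or an shRNA against Tdg. Each shRNA group was 1 library, and the sources used here do not give whether the wild-type libraries are of separate cultures. The first whole-genome library and both shRNA libraries gave a level per site, the percentage of converted reads after a background correction by the authors, and the second whole-genome library gave a p-value per site and no level. Those above 1e-07 match exact one-sided binomial tails. The number of reads behind a level is therefore unknown in 3 libraries. In the second library the reads were recovered from p-values above 1e-07, for 165 of the 205 members, with a median of 15 reads against 13 in the flanks and in the whole list. Expression was not measured, so the cell type was not checked against marker genes.

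The 9 genes encode transcriptional regulators of the pluripotent state. POU5F1, SOX2 and NANOG form the core of the network. KLF4, ESRRB, TBX3 and TFCP2L1 help to maintain naive pluripotency. PRDM14 and SALL4 are zinc-finger proteins, and PRDM14 is known for restraining de novo DNA methylation in these cells and in primordial germ cells. TET enzymes oxidise 5-methylcytosine, by way of 5-hydroxymethylcytosine, to 5-formylcytosine and 5-carboxylcytosine, which the glycosylase TDG removes. In MAB-Seq the enzyme M.SssI first protects unmodified CpGs. A CpG that still reads as thymine carried one of the last 2 bases, escaped M.SssI, or was thymine in the DNA of these cells already, and a level does not tell these apart.

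Promoter sequences show which CpGs near Pou5f1 and Klf4 were listed. The first library gave 5 bases around each CpG, and these were matched to RefSeq promoters of build GRCm38.p6 within 150 kb of each gene. Around Pou5f1, 1 shift of positions brought 9 of 9 first-library CpGs in 20 promoters onto an identical context, and all 6 sites of the other libraries there fell on a CpG. Around Klf4 the same held for 3 of 3 CpGs in 4 promoters and for 1 site of another library. No shift met the minimum of 3 CpGs with all matching around the other genes, where sites could not be placed relative to a promoter. The 250 bases before the start are printed 5′ to 3′ on the gene's strand, for Pou5f1 (chr17:35505782-35506031, plus strand), for its neighbours Cchcr1 (chr17:35517003-35517252, plus strand) and H2-Q10 (chr17:35469839-35470088, plus strand), and for Klf4 (chr4:55532476-55532725, minus strand). Capitals mark the CpGs listed in the first library. These promoters were chosen as those of the 2 genes and of neighbours with results described below, and each has 1 listed CpG. Of all 24 placed promoters, some of which overlap, 16 had no listed CpG in these 250 bases, the second Pou5f1 promoter among them. Another 7 had 1 listed CpG, and 1 promoter, of the skin protein gene Cdsn, had 2 of its 3 CpGs listed, both at 0.
Pou5f1: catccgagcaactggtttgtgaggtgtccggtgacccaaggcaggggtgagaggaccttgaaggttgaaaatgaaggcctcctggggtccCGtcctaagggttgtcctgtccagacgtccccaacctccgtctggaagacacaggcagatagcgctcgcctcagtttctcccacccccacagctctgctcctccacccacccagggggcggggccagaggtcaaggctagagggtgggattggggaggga
Cchcr1: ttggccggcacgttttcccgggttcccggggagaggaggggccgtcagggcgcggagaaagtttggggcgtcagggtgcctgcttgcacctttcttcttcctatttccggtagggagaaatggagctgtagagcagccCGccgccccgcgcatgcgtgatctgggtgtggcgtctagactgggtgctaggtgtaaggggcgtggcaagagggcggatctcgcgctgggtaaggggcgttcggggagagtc
H2-Q10: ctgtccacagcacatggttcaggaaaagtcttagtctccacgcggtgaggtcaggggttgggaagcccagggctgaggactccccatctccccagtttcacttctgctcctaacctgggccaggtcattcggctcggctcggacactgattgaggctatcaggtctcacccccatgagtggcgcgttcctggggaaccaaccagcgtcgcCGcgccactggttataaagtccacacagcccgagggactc
Klf4: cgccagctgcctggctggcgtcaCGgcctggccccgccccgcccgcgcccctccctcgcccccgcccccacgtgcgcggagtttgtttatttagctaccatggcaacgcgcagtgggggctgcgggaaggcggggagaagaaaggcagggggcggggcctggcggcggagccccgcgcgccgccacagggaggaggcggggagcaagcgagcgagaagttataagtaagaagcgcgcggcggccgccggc

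In each of these 4 promoters 1 CpG was listed in the first library, of 8 in the Pou5f1, 21 in the Cchcr1, 12 in the H2-Q10 and 32 in the Klf4 sequence. The listed CpG of the Pou5f1 promoter had a level of 10%. That of Cchcr1 had 33.8% and that of Klf4 25.3%. The number of CpGs differed widely between promoters of the 9 genes. Of 32851 RefSeq promoters, 4.58% held at least as many CpGs in these 250 bases as Klf4, and 8.56% at least as many as Sox2 with 27. Tfcp2l1 had 16, and the 2 promoters of Nanog had 3 and 2 beside a median of 6 over all promoters. No entry for Tbx3, Prdm14 or Sall4 was used.

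**Figure D1:**
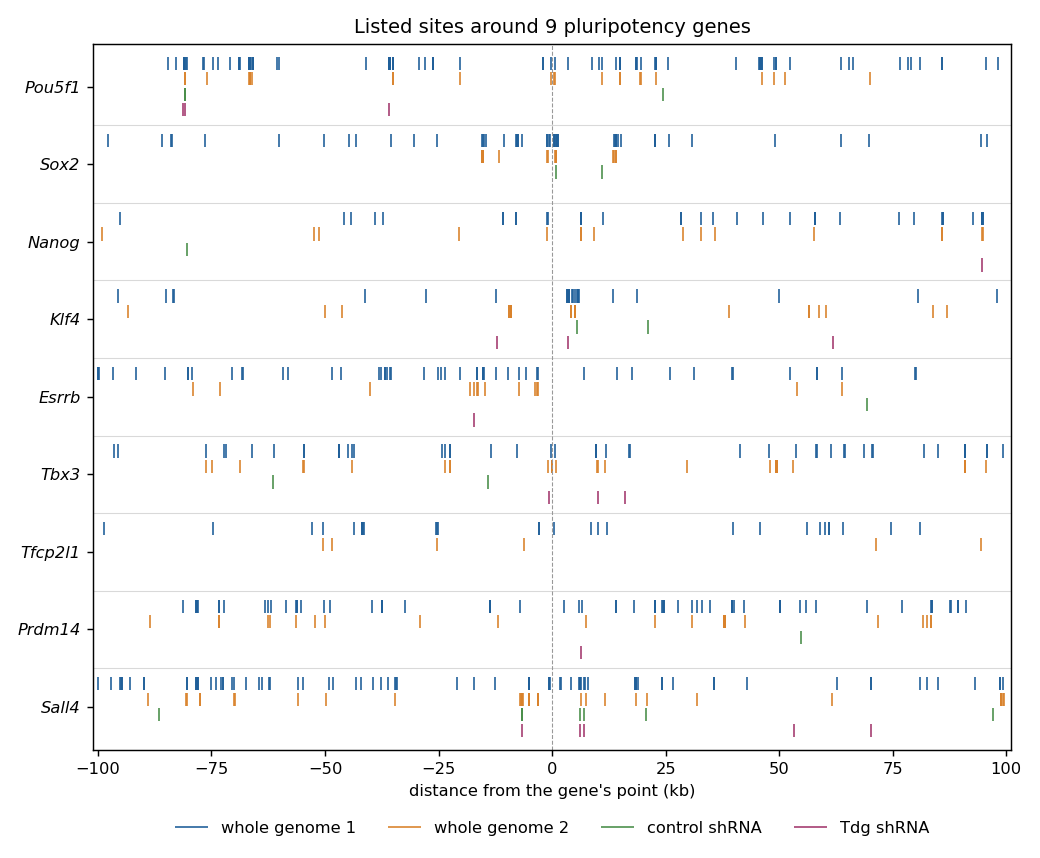
Position of each listed site as the distance from the point of its gene in kb, with 1 row of ticks per library for each of 9 genes. First-library sites within 10 kb of the Klf4 point all lie between 3.2 and 5.9 kb, and the Tfcp2l1 neighbourhood has no tick of either shRNA library.

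Listed sites were somewhat denser in the neighbourhoods than in the flanks, with the highest density within 10 kb of the points. In the first library the density was 278.9 sites per Mb against 251.4 in the flanks, which is 1.11 times as dense (95% interval 1.005 to 1.22). The second library had 113.9 against 81.8 per Mb, 1.39 times as dense (1.19 to 1.63). Within 10 kb, a distance chosen after the data were seen, the densities were 494.4 and 322.2 sites per Mb, with ratios to the same flanks of 1.97 (1.57 to 2.43) and 3.94 (2.96 to 5.15). Within this distance the first library listed 20 sites around Sox2, 18 around Klf4 and 17 around Sall4, and 4 to 8 around each other gene. The second listed 17 around Sall4, 12 around Klf4 and 8 each around Sox2 and Tbx3, and 1 to 4 around the rest. From 10 to 50 kb the densities were 280.6 (243.2 to 322) and 105.6 (83.2 to 132.1) per Mb, above the flanks in both, and in the second library by more than its interval. From 50 to 100 kb they were 234.4 and 78.9 per Mb, below the flanks but within the intervals. The intervals cover counting error of single libraries, in which neighbouring sites share reads, and no test between groups was possible. The number of CpGs and the coverage of each stretch are unknown, so a density does not tell modified CpGs from more CpGs.

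Over 100 kb the first library showed an excess only with its sites at a level of 0 included. Without these the ratio was 0.997 (0.889 to 1.12), and with sites of at least 10% alone it was 0.938 (0.814 to 1.08). Its interval also included equal density without the neighbourhood of Sox2 (1.04, 0.938 to 1.15), Nanog, Klf4, Esrrb, Prdm14 or Sall4, each left out alone. In the second library it lay above equal density without any 1 of the 9. Within 10 kb a ratio of 1.66 (1.26 to 2.14) was left without sites at 0. In the second library, joining sites within 100 bp of each other into 1 brought the ratio to 1.17 (0.967 to 1.42). Counted in this way, its interval included equal density. The ratios within 10 kb count each listed site as separate and were not computed from joined sites.

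**Figure D2:**
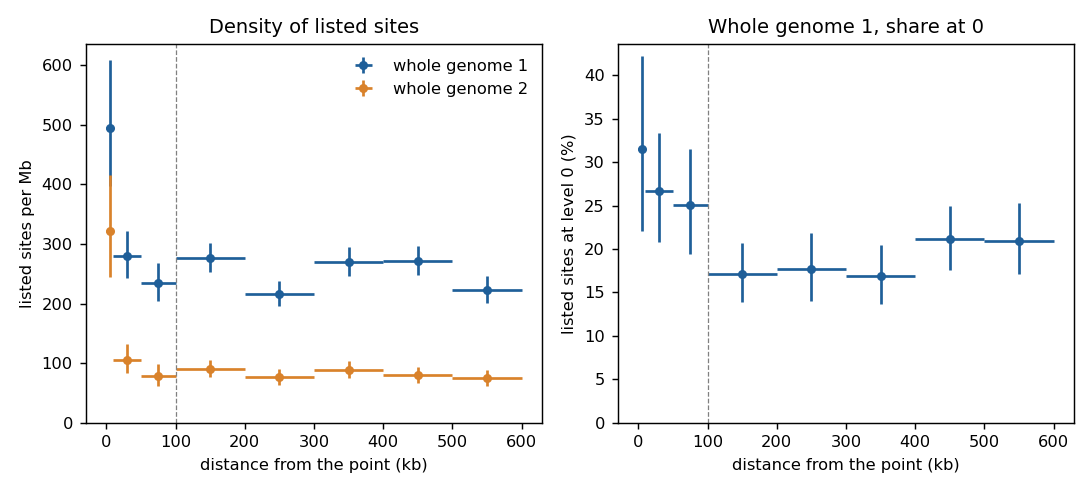
Left, listed sites per Mb by distance from the point (kb), pooled over 9 neighbourhoods, for both whole-genome libraries; right, percentage of first-library sites at level 0. Horizontal bars are the bins, vertical bars 95% intervals of counting error, and the dashed line is the edge of the neighbourhoods. The bin within 10 kb stands at 494.4 and 322.2 sites per Mb, and the share at 0 within 100 kb lies at 25.1% or more.

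The 9 neighbourhoods differed among themselves, and several lay on the same side of equal density in both whole-genome libraries. Around Sox2 the first library listed 54 sites (270.0 per Mb) against 110.0 per Mb in the flanks, a ratio of 2.45 (1.74 to 3.43), and the second 23 sites with a ratio of 3.19 (1.81 to 5.54). Klf4 had ratios of 1.72 (1.10 to 2.64) with 30 sites and 2.29 (1.32 to 3.87) with 22. Prdm14 had ratios of 1.62 (1.22 to 2.13) with 70 sites and 2.69 (1.64 to 4.34) with 28. In the first library their flanks held 110.0 sites per Mb for Sox2, 87 for Klf4 and 216 for Prdm14. Tfcp2l1 stood at the other end, with 31 and 6 sites and ratios of 0.564 (0.376 to 0.819) and 0.423 (0.150 to 0.966). These ratios and intervals count every listed site as separate. Joining second-library sites within 100 bp left 9 around Sox2, 14 around Klf4, 18 around Prdm14 and 6 around Tfcp2l1. No ratio to the flanks was computed gene by gene from joined sites.

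Pou5f1 had the most first-library sites, 91, in the densest flanks, 594 per Mb, and a ratio of 0.766 (0.607 to 0.956). In the second library it had 26 sites and a ratio of 0.699 (0.445 to 1.06). The neighbourhood and its flanks cross class I genes of the major histocompatibility complex, H2-Q, whose copies are alike in sequence. How reads with several placements were treated is not given in the sources used here, so sites among these copies are uncertain. Sall4 had 82 and 37 sites, with ratios of 1.15 (0.892 to 1.46) and 1.43 (0.967 to 2.08), and Nanog 40 and 16, with 1.46 (0.9997 to 2.09) and 1.74 (0.919 to 3.13). Esrrb had 53 and 14 sites, with ratios of 1.12 (0.814 to 1.51) and 0.833 (0.437 to 1.48). Tbx3 had a ratio of 1.02 (0.739 to 1.38) with 51 sites in the first library and of 1.96 (1.27 to 2.97) with 33 in the second. Joined within 100 bp, the second-library sites numbered 20 around Tbx3, 23 around Sall4, 19 around Pou5f1, 14 around Nanog and 13 around Esrrb.

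As a description of where these counts fall, tiles are autosomal 200 kb stretches with a site of the library. In the first library 3.75% of tiles held at least as many sites as the Pou5f1 neighbourhood, and 34.0% at least as many as Klf4. The median tile held 19 first-library and 7 second-library sites. In the second library 3.21% of tiles held at least as many sites as Sall4, 4.68% at least as many as Tbx3 and 55.9% at least as many as Tfcp2l1. All 9 neighbourhoods lay above the median tile in the first library, and Tfcp2l1 lay below it in the second.

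**Figure D3:**
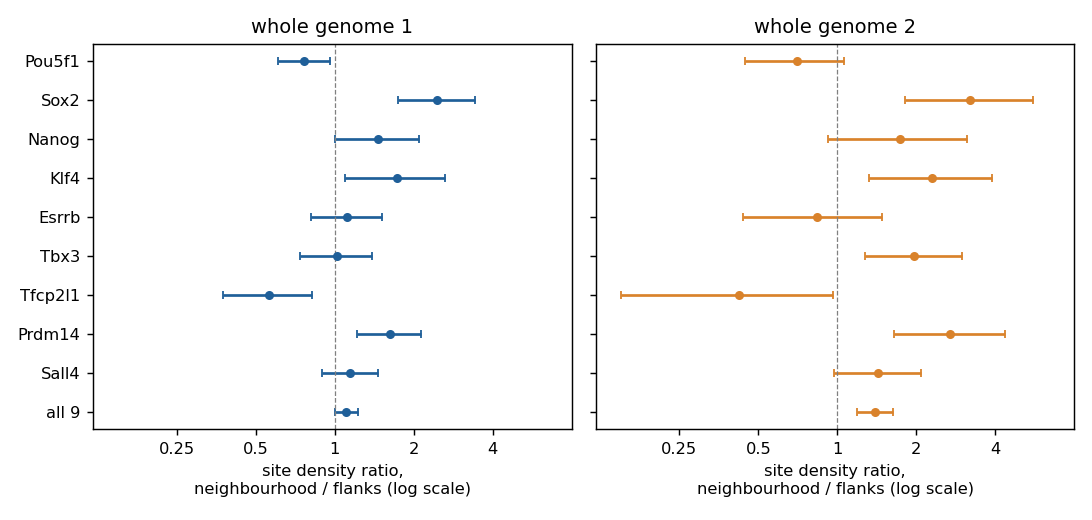
Ratio of the density of listed sites within 100 kb of each point to that in the next 500 kb on each side, on a log axis, for both whole-genome libraries. Points are single-library ratios with 95% intervals of counting error, each listed site counted as separate, and the dashed line marks equal density. Sox2, Klf4 and Prdm14 lie above and Tfcp2l1 below the line in both panels.

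Levels in the first library had a lower median in the neighbourhoods than in the flanks, where fewer sites stood at 0. The median was 9.43% (95% interval 8.66% to 10.4%) in 502 members against 11.1% (10.8% to 11.6%) in the flanks, and 11.1% in the whole list. At 0 were 135 members, 26.9% (23.1% to 31.0%), against 18.7% (17.1% to 20.4%) in the flanks and 20.1% of the whole list. Above 0 the medians were 12.8% and 13.6%, a difference of -0.82 points with an interval (-1.96 to 0) that reached 0. With sites at 0 counted, the medians around Sox2 (10.6% against 10.3%) and Prdm14 (16.8% against 15.1%) lay above their flanks. Those around the other genes lay below. A level of 20% or more was found at 99 members, 19.7% (16.3% to 23.5%), against 25.1% (23.3% to 26.9%) in the flanks and 23.9% of the whole list. At 90% or more stood 7 of 502 members, against 45 of 2263 flank sites and 6927 of 331875 in the whole list. These 7 were all at 100%, 2 each around Tbx3, Prdm14 and Sall4 and 1 around Klf4. Why sites at 0 were listed is not given in the sources used here.

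The share at 0 was 37.8% around Sall4 against 19.9% in its flanks, 35% around Nanog against 22.6%, and 33.3% around both Sox2 and Klf4 against 20.9% and 13.8%. Tbx3 had 27.5% against 13.2% and Tfcp2l1 25.8% against 14.2%. Around Pou5f1, Esrrb and Prdm14 the shares were 20.9%, 18.9% and 15.7% against 21.4%, 22.8% and 15.3%. Leaving out any 1 of the 9 kept the pooled share between 24.8% and 28.7%. By distance, it was 31.5% (22.0% to 42.2%) within 10 kb, 26.7% from 10 to 50 kb and 25.1% from 50 to 100 kb, and between 16.8% and 21.1% in the 100 kb bins beyond.

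**Figure D4:**
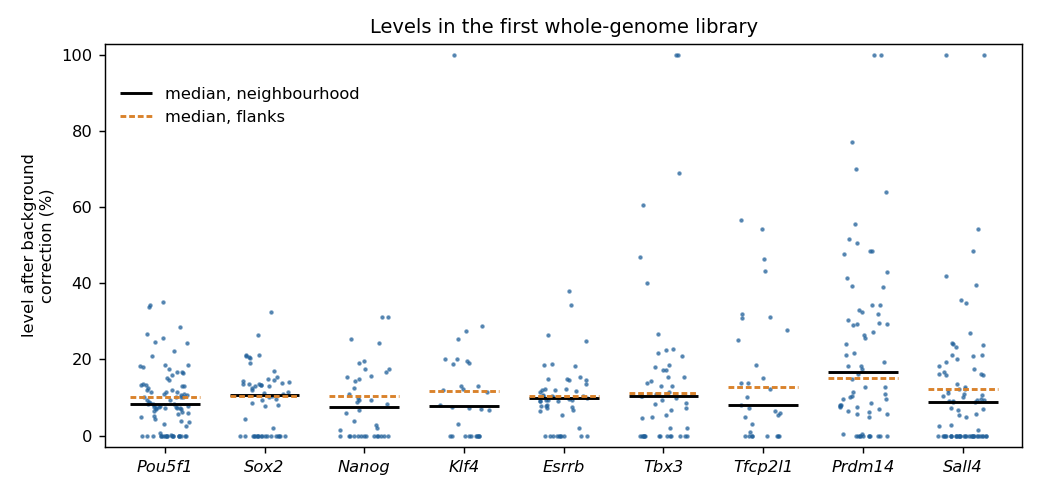
Level of each first-library site after background correction (%), 1 point per site, by neighbourhood. Solid lines are neighbourhood medians and dashed lines flank medians; the highest neighbourhood median is that of Prdm14, 16.8%, and points at 100% are found around Klf4, Tbx3, Prdm14 and Sall4.

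Clusters of the first library, runs of 3 or more listed CpGs with gaps of at most 100 bp, held 123 members, 24.5% (20.8% to 28.5%), beside 27.8% (26.0% to 29.7%) in the flanks and 26.6% of the whole list. There were 30 such clusters, 7 around Prdm14, 6 around Pou5f1, 4 around Sox2 and 1 each around Esrrb and Tfcp2l1. The largest had 8 CpGs, where the flanks had up to 19. Sites in clusters had a median level of 10.8% (7.94% to 12.1%) and lone sites of 9.18% (7.84% to 10.1%), so that the intervals overlapped.

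Clusters of the second library held a larger share of members than of flank sites. With both strands of a CpG merged, 68 of 205 sites, 33.2% (26.8% to 40.1%), were in 13 clusters, against 16.6% (14.0% to 19.5%) in the flanks and 22.5% of the whole list. In 10 of the 13 all sites were on 1 strand, 76.9% of clusters beside 79.9% over the whole list. In 5 clusters, 38.5% (13.9% to 68.4%), at least 3 CpGs followed each other at steps of 2 bp, as in a run of alternating C and G, against 23.1% in the flanks and 11.4% over the whole list. A p-value of at most 1e-04 was listed at 65 members, 31.7% (25.4% to 38.5%), against 23.4% (20.4% to 26.6%) in the flanks and 26.8% of the whole list. For 22 of 205 members the p-value was listed as 0, against 48 of 736 flank sites and 10968 of 118502 in the whole list. Most of the 22 lay in clusters on 1 strand around Klf4, Tbx3 and Prdm14, described below.

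Sequences of overlapping contexts show short runs of listed CpGs in the first library. Each is joined from the 5-base contexts of the first library, plus strand of mm9, with the listed CpGs in capitals, and the set was chosen to place runs of alternating C and G beside the strong runs near Prdm14.
Tbx3, chr5:120074120-120074128: caCGCGCGc
Tbx3, chr5:120211900-120211908: tgCGCGCGt
Prdm14, chr1:13072607-13072615: ggCGcaCGc
Prdm14, chr1:13096234-13096242: ggCGtgCGc
Prdm14, chr1:13096246-13096254: caCGtcCGg
Prdm14, chr1:13160156-13160164: caCGccCGg
The first Tbx3 run lay 46.9 kb before the point and all 3 of its CpGs were at 0, whereas the other, 90.9 kb after it, had levels from 18.7% to 26.6%. The Prdm14 runs had levels from 30.4% to 34.3%, 32.9% to 47.6%, 48.4% to 64.0% and 21.6% to 51.8% in the printed order. Of the runs printed, only the Tbx3 run 90.9 kb after the point had second-library sites within 100 bp of its cluster. Other joined stretches were not printed, among them a run of alternating C and G near Sall4 with its CpGs at 0.

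Around Pou5f1, the POU-domain factor at the core of the network, few sites lay close to the gene. Within 10 kb the first library listed 6 sites, at most at 16.7%, and the second 3, none at a CpG of the first list. Over the whole list, 35.3% of plus-strand and 12.5% of minus-strand second-library sites were at such a CpG. The site in the printed promoter lay 183 bp before the point at position 35642817, and another at position 35643590 had 8.25%. The strongest site shared by both whole-genome libraries was the Cchcr1 promoter CpG at position 35654086, with 33.8% in the first library and 6 of 20 reads converted in the second (exact binomial p = 7.36e-05). Cchcr1 encodes a coiled-coil protein. The largest cluster, 8 CpGs in 270 bp from position 35606994, began in the H2-Q10 promoter printed above. Its median level was 4.74%, with 3 CpGs at 0 and the highest at 18.7%. The CpG at position 35607068, just after the H2-Q10 start, had 11.3% in the first library and 8.57% in the Tdg shRNA library. Another Tdg shRNA site, at 12.9%, fell in the promoter of H2-Q6.

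Around Sox2, the high-mobility-group partner of POU5F1, sites were packed close to the point. Within 1 kb the first library listed 6 and the second 7 sites, and none of these coincided. Across the whole neighbourhood, 0 of the second library's 9 sites on the plus strand were in the first list, an interval of 0% to 33.6%. In its flanks the share was 36.8%, and over the whole list 35.3%. On the minus strand 2 of 14 fell on a listed CpG, beside 12.5% over the whole list. From position 34549784 to 34549953 the second library had 5 CpGs with 4 or 5 converted reads of 11 to 21, at 20% to 36.4% before correction. The first library had 2 CpGs within 100 bp of that cluster, both at 0, 1 of them at position 34549913, where the control shRNA library had 6.67%. The other control shRNA site, at 11.7%, lay 11 kb after the point, and the Tdg shRNA library listed none. The densest second-library cluster of the neighbourhood lay 15.4 kb before the point, with 10 CpGs in 42 bp, all on the minus strand, and p-values down to 1.08e-09. The first library had 2 CpGs there and both were at 0. Its own clusters held up to 4 CpGs. That from position 34541316 had levels from 8.04% to 13.5%, and that from position 34550180, 1.2 kb after the point, 0 to 26.4% with 2 CpGs at 0.

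Nanog encodes the homeodomain factor of the core, and its promoter was poor in CpGs. The first library had 1 site within 1 kb, at 2.78%, and 8 within 10 kb. The 1 plus-strand site shared with the second library lay 1.0 kb before the point at position 122655972, with 5.88% in the first library and 15 of 196 reads converted, 7.65% before correction, in the second (exact binomial p = 0.00837). Among the 165 members with recovered reads it was the most deeply read. A cluster of 4 CpGs 6.4 kb after the point, from position 122663357, held the strongest second-library call of the neighbourhood, on the minus strand of a CpG at 25.4% in the first library. Its deposited p-value was 4.71e-09. The 5 CpGs of the largest cluster, 94.6 kb after the point, were all at 0. A Tdg shRNA site of 4.28% lay within 100 bp of that cluster. The control shRNA site of 22.8% lay 80.3 kb before the point.

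Around Klf4, a Krüppel-like zinc-finger factor, first-library sites were drawn together near the promoter. All 18 sites within 10 kb lay from 3.2 to 5.9 kb after the point, a stretch that includes the Klf4 promoter printed above. The cluster of 8 CpGs from position 55545573 to 55545710 had a median of 15.9%, 3 CpGs at 0 and a highest level of 28.9%. The control shRNA library had 10.2% in the printed promoter, at position 55545541, and 6.24% at a site 21.2 kb after the point. Tdg shRNA sites were at 15.4% 12.2 kb before the point, at 7.10% 3.4 kb after it and at 100% 61.8 kb after it. The only shared site, at position 55545098, had 19.6% in the first library and 7 of 20 reads converted in the second (exact binomial p = 5.72e-06), with 2 more second-library CpGs within 13 bp. A second-library cluster 9.1 kb before the point held 5 minus-strand CpGs at steps of 2 bp, all with a p-value listed as 0. No first-library site lay within 100 bp of it.

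Esrrb encodes an orphan nuclear receptor. Its 53 first-library sites had a median of 9.79% and just 4 reached 20%, 7.55% of sites (2.10% to 18.2%), beside 13.9% in the flanks. The 1 cluster, 4 CpGs from position 87764753, had levels from 10.2% to 18.8%. Of the shared sites the stronger lay 3.2 kb before the point, with 8.04% in the first library and 5 of 16 reads in the second (exact binomial p = 0.000243). A site 17.1 kb before the point was at 100% in the Tdg shRNA library at position 87762900, and the second library listed the adjacent minus-strand base with a p-value of 0. Neither the first nor the control shRNA library listed that CpG. The control shRNA library had 7.52% at a site 69.3 kb after the point.

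Tbx3, a T-box factor, had the largest share of plus-strand sites common to the whole-genome libraries. The first listed 7 of the 13 that the second had on the plus strand, 53.8% (25.1% to 80.8%), but on the minus strand 1 of 20 fell on a listed CpG. Over the whole list these shares were 35.3% and 12.5%. The CpG at position 120098605, 22.4 kb before the point, was at 100% in the first library and had a p-value of 0 in the second. A CpG 16 bp before it had 69.1% and a deposited p-value of 8.73e-13. Another at position 120097441 had 46.9% and 2.97e-11. The run printed above at 90.9 kb was called at 3 CpGs labelled plus strand in both libraries. Levels along its cluster of 6 CpGs went from 26.6% at the first to 7.22% at the last. Within 1 kb of the point the libraries listed 2 and 6 sites with none in common, too few to set beside the whole-list shares. A cluster of 8 minus-strand CpGs in 50 bp, 49.4 kb after the point, had a p-value listed as 0 at 7 of them and no first-library site nearby. Tdg shRNA sites at 8.85%, 11.4% and 8.57% lay 0.6 kb before and 10 and 16 kb after the point, and control shRNA sites at 15.2% and 19.1% lay 61.6 and 14.1 kb before it.

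Tfcp2l1 encodes a grainyhead-like factor, and its neighbourhood was the sparsest in the second library. It held 31 first-library sites, 6 second-library sites and none of either shRNA library, for which a Poisson interval allows up to 3.69. No CpG was shared by the whole-genome libraries. With 2 plus-strand and 4 minus-strand second-library sites, the intervals of the shared shares ran from 0% to 84.2% and 0% to 60.2%. They are too wide to set beside the whole-list shares of 35.3% and 12.5%. Levels were spread widely, with a median of 7.94% (4.84% to 15.3%). At 20% or more were 9 of 31 sites, 29.0% against 32.4% in the flanks. Its 1 cluster, 6 CpGs from position 120508126, had a median of 31.1% and levels from 7.94% to 56.8%. The smallest second-library p-value was 1.70e-05, from 5 of 10 reads converted 50.5 kb before the point.

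Prdm14 had the highest levels of the 9 in the first library, and so did its flanks. The median was 16.8% (10.2% to 25.7%) against 15.1% (12.5% to 17.9%) in the flanks, and 31 of 70 sites, 44.3% (32.4% to 56.7%), were at 20% or more against 42.1%. Of its 7 clusters, 5 had median levels from 27.2% to 48.0%, the highest being 4 CpGs in 17 bp from position 13096236, 13.8 kb before the point, part of which is printed above. No second-library site lay within 100 bp of any of these 5, and the same held for most first-library clusters of the 9 neighbourhoods. The share of such clusters in the flanks or whole list was not computed. Elsewhere, 9 minus-strand CpGs in 38 bp, 37.9 kb after the point, had p-values of at most 2.51e-06 in the second library and no first-library site within 100 bp. At 83.5 kb after the point both strands of 1 CpG were called in the second library, with 9 of 42 reads on the minus strand and a p-value of 0 on the plus strand, while the first library listed it at 0. The control shRNA site had 24.1% at 54.7 kb and the Tdg shRNA site 13.8% at 6.4 kb after the point.

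Sall4, a spalt-like zinc-finger factor, had the most shRNA library sites, 8 with control and 5 with Tdg shRNA, and the largest share at 0. From 6.8 to 6.6 kb before the point 3 libraries had sites close together. The second library listed 4 CpGs there with 3 to 5 reads converted of 11 to 15, the control shRNA library had 9.37%, 8.90% and 8.90% at positions 168567260, 168567386 and 168567406, and the Tdg shRNA library 12.5% at position 168567394. The first library had no site within 100 bp of the shRNA sites. At 5.2 kb before the point 4 CpGs in 17 bp were at 0 in the first library. The second called 4 CpGs there on the minus strand, 3 of them the same, with 23.5% to 31.2% of 10 to 17 reads converted. At 3.1 kb before it 5 minus-strand CpGs in 12 bp had second-library p-values of at most 8.30e-08. The largest first-library cluster, 5 CpGs from position 168592320, had 3 at 0 and a highest level of 21.1%. The strongest shared site, 34.7 kb before the point at position 168539303, had 100% in the first library and a p-value of 0 in the second.

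The whole-genome libraries shared a smaller share of sites in the neighbourhoods than in the flanks, within intervals that overlap. The second library had 88 members on the plus strand, and 24 of these bases also appeared in the first list, 27.3% (18.3% to 37.8%), against 36.8% (31.9% to 42.0%) in the flanks and 35.3% of the whole list. Within 100 bp 55.7% had a first-library site, against 61.6%. Of 117 minus-strand sites 15 fell on a listed CpG, 12.8% (7.36% to 20.3%), against 10.2% in the flanks and 12.5% of the whole list. Every first-library member is labelled plus strand, but whether its levels come from reads of that strand alone was not determined here. The first library gave 13 of these 15 CpGs a level of 0 but just 3 of the 24 shared on the plus strand. This strand difference was not computed for the flanks or the whole list, so it is not shown to be particular to the neighbourhoods. Reads were recovered for 17 of those 24, and their median level before correction was 15.6% by the first and 27.3% by the second library, with 14 higher in the second. The second list holds no member with a p-value above 0.00994 or fewer than 3 recovered converted reads, so a site of few reads had to stand high to be in it, and the difference is no comparison of levels.

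The comparison of Tdg with control shRNA addresses how sites differ when TDG is depleted. The extent of depletion was not analysed here. In the neighbourhoods 17 sites carried a call with Tdg shRNA and 21 under the control, which is 0.810 times as many (0.401 to 1.61), beside 0.692 (0.463 to 1.03) in the flanks and 0.694 over the whole lists. The intervals of these ratios overlapped widely. Median levels were 11.4% (9.51% to 13.8%) and 10.2% (8.04% to 15.2%). Against their flanks, the densities had a ratio of 1.89 with Tdg shRNA (1.01 to 3.37), and the control library stood at 1.62 (0.938 to 2.68). The Tdg shRNA interval included equal density without the neighbourhood of Klf4 (1.56, 0.789 to 2.89), Tbx3, Prdm14 or Sall4, and with levels of at least 10% (1.77, 0.805 to 3.63). Both libraries hold sites on MspI fragments alone, and each listed 7 sites within 10 kb of a point. Around Sall4 lay 5 of these with control and 3 with Tdg shRNA.

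The shRNA libraries shared 3 sites in the neighbourhoods, 17.6% of the Tdg and 14.3% of the control sites. These shares were 20% and 13.8% in the flanks, and 17.5% and 12.2% over the whole lists. At Sall4, 6.1 kb after the point at position 168580052, the level was 94.3% with control and 60.2% with Tdg shRNA, and the first whole-genome library had 21.1% at this CpG. A second site 7.0 kb after the Sall4 point had 4.62% and 9.51%. The third, 80.9 kb before the Pou5f1 point, had 26.4% and 11.4%. Tdg minus control was thus negative at 2 sites and positive at 1. At 100% with Tdg shRNA and not listed with control shRNA were the Esrrb site described above and a site 61.8 kb after the Klf4 point. With 1 library a group and unknown depth, none of these differences has a replicate check.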

How the data were processed

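MAB-Seq of E14 cells gave 4 libraries. CASAVA 1.8, Bismark 0.10.1 and mouse build mm9 were used per the submitters' processing notes, and how sites were called is not given in the sources used here. The authors deposited percent levels for 3 libraries and p-values for the second whole-genome library. All deposited percentages above 0 equal a fraction from which 3.0% (first library), 2.9% (control shRNA) or 3.3% (Tdg shRNA) had been subtracted before rescaling. Deposited p-values equal binomial tails for a background of 3.8%, which matched 99.9% of 5000 p-values tried, and 85.3% of sites gave a single pair of reads. Sites were selected and counted with Python 3.11.15 and scipy 1.17.1, in code tested on simulated data. Positions are the 1-based end coordinates of the files. Intervals are 95%, exact conditional binomial for ratios of counts, Clopper-Pearson for shares, Poisson for counts and from order statistics for medians, and cover counting error only. PCR copies were not told apart. Samples were grouped by their labels. Coverage was not used here, so the planned coverage minimum was not run. Shared sites were named by the smallest second-library p-value, clusters by the most CpGs, and every shRNA site where a library had 3 or fewer, and other sites were named after their values were seen. The members, lists and measures were chosen with earlier results of these data known. Other pluripotency genes were not analysed here, since no mm9 annotation was used, nor was it determined which sites are exonic or intronic. The alternatives tried were the widths of neighbourhood and flanks, limits on level and p-value, joining of sites, cluster rules, and leaving out each neighbourhood or whole-genome library.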

Additional observations from a re-analysis of the deposited data

How the results depend on the processing

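Of 110 alternative values, 90 stayed within the counting interval of the reported one and 2 crossed equal density, the first library's ratio without sites at 0 (0.997) and with levels of at least 10% (0.938). Neighbourhoods of 50 kb gave ratios of 1.28 in the first library, 1.83 in the second and 1.41 for CpGs of both joined, which was 1.18 as reported. Those of 10 kb, chosen after seeing the data and without joining of sites, gave 1.97 (1.66 without sites at 0) and 3.94. The ratios were 5.38 (2.08 to 11.7) with control and 7.78 (2.96 to 17.4) with Tdg shRNA. Each of these 2 rests on 7 sites, 5 of them around Sall4 with control and 3 with Tdg shRNA. Without the Pou5f1 neighbourhood the ratio was 1.23 in the first library and 1.34 for both joined, and leaving out another kept these at 1.04 or more and 1.10 or more, but the first library's interval then included 1 for 6 of the 9 and that of the Tdg shRNA library for 4. In the second library, joining sites within 100 bp gave 1.17 and p-values of at most 0.0001 gave 1.89. The joined ratio was 1.39 without the first and 1.11 without the second whole-genome library. The shared share was 52.6% at p-values of at most 0.0001 (flanks 74.5%) and 55.7% within 100 bp. The share in first-library clusters was 15.5% with gaps of at most 50 bp, 34.9% with 200 bp and 8.76% with 5 or more CpGs, against 19.2%, 34.2% and 12.7% in the flanks. No paired analysis was possible because the groups share fewer than 2 replicate numbers, and no test was made. The unknown depth of 3 libraries limits every level, and a coverage minimum was not run.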
